A study of Mus musculus with 6 samples.

Results

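Retinoic acid synthesis and degradation were followed across pancreatic islet libraries of mice on a normal or a high fat diet through 9 genes: Aldh1a3, Cyp26b1, Aldh1a1, Aldh1a2, Rbp4, Crabp1, Crabp2, Rarb and Rdh10. Aldh1a3 and Cyp26b1 were chosen by their difference between the diets in these same libraries, so their values are given as a description with no test. The other 7 were added by name, with earlier results of these data known. All 9 could be linked to 1 locus each among the 39470 loci of the count table, and 7 of the 9 had enough reads to be tested. Crabp1 and Crabp2 did not. The mice were C57BL/6, an inbred laboratory strain, and 14 weeks old, and the high fat group had eaten its diet for 8 weeks. Each diet has 3 libraries of islet total RNA depleted of ribosomal RNA. Whether each library is a separate animal is not stated in the labels. The tests therefore rest on differences among libraries that may be technical. The count columns call the high fat group HDR, which is not spelled out, and every direction given here rests on reading that name as the high fat diet.

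Retinoic acid is made from vitamin A in successive oxidations. Retinol, carried in blood by the protein that Rbp4 encodes, is oxidised to retinal by retinol dehydrogenases such as the product of Rdh10, and retinal is oxidised irreversibly to retinoic acid by the retinal dehydrogenases of Aldh1a1, Aldh1a2 and Aldh1a3. In the cell, retinoic acid is bound by the proteins of Crabp1 and Crabp2, acts on nuclear receptors such as the product of Rarb, and is removed by the cytochromes P450 of the Cyp26 family. In the pancreas the pathway is known for its part in the early patterning of the organ and in endocrine differentiation, and Aldh1a3 is known as a marker of failing beta cells in diabetic mice.

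Rarb and Cyp26a1 are textbook targets of retinoic acid whose promoters hold direct repeats that retinoic acid receptors bind, so the promoters below are shown for the 2 genes in which such a repeat was found and for Cyp26b1, the degrading enzyme that set the choice of genes. The sequences come from RefSeq on GRCm38.p6, a later build than the mm9 of the counts, and no coordinates were converted. Windows of 300 bases, 250 before and 50 after the transcription start, were listed for 6 of the 9 genes. Aldh1a3, Crabp2 and Rdh10 had none. Both strands were searched for direct repeats of the core motif of nuclear receptors spaced by 5, 2 or 1 bases, named DR5, DR2 and DR1, and for TATAAA. Each sequence is the 250 bases before the start, and capitals mark the DR5 in Rarb and Cyp26a1 and TATAAA in Cyp26b1.
Rarb, chr14:16575477-16575726, minus strand: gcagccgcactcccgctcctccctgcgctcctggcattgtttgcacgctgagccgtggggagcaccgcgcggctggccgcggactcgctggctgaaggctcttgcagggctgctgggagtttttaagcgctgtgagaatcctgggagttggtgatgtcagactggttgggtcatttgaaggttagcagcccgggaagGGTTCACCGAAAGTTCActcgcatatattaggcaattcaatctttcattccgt
Cyp26a1, chr19:37697558-37697807, plus strand: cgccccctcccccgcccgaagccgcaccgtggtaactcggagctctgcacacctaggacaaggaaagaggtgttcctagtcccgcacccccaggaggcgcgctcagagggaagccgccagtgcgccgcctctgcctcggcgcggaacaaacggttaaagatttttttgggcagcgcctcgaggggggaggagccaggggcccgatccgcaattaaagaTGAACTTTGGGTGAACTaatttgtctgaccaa
Cyp26b1, chr6:84593811-84594060, minus strand: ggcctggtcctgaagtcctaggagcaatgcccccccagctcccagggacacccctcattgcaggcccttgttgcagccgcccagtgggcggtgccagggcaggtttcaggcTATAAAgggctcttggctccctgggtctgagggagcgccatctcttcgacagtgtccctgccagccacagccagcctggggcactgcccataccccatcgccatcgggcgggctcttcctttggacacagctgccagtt

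The DR5 of Rarb lies 53 to 37 bases before the start on the strand of the gene, and that of Cyp26a1 lies 32 to 16 bases before the start on the opposite strand. A DR5 was found in 32 of 32851 windows (0.0974%), a DR2 in 88 (0.268%) and a DR1 in 73 (0.222%). The only other direct repeat in the retinoid genes with a window (59 of 82) was a DR1 in Bco1, 56 to 44 bases before its start on the opposite strand. TATAAA, present in Cyp26b1 139 to 134 bases before the start, was found in 4473 windows (13.6%), and it overlaps none of these repeats. These matches describe the letters in the windows, not receptor binding.

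Libraries held between 104657337 and 135353777 counted reads, and levels are library-scaled read counts (CPM) with TMM factors, which centre the bulk of the loci between libraries. The quasi-likelihood test of edgeR put 2591 of 23983 tested loci (10.8%) past an adjusted p of 0.05 (Benjamini-Hochberg over all of them). The high fat diet was the higher of the diets at 1426 of these (5.95% of tested loci) and the lower at 1165 (4.86%). The libraries of the diets did not overlap at 39.2% of tested loci. Scaling by library totals alone gave 300 higher and 3039 lower and moved the median log2 fold change of all loci from -0.05 to -0.25. High fat library 3 scored 59.4 on principal component 2 of log2 CPM, where the other high fat libraries scored -32.3 and -25.5. Without it 3075 loci were higher and 1960 lower. With normal diet library 1, 2 or 3 left out, 0 loci passed in either direction by edgeR, and 5500, 6286 and 6294 respectively were under 0.05 before adjustment. Reads in exons shared with a gene on the opposite strand went uncounted: all 558 loci shared in full this way had 0 counts, among them Ttr and Rdh14 of the retinoid lists and the markers Slc2a2, Krt7 and Cd68. Nkx6-1, with 99.5% of its exon bases shared, had 0 counts as well. Of the 9 genes, this touches Rbp4, 67.5% of whose exon bases are shared with Ffar4, and Rarb, 36.1% shared with Top2b.

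Of the 5 tested genes that were not chosen on the diet contrast, Rarb was lower in high fat islets and had no overlap between the diets. Rdh10, Aldh1a1, Aldh1a2 and Rbp4 did not pass the threshold, and their diets overlapped. Aldh1a3 had higher and Cyp26b1 lower values in every high fat library than in any normal diet library, which is how they came to be chosen, and nothing is read from it against the background.

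**Figure D1:**
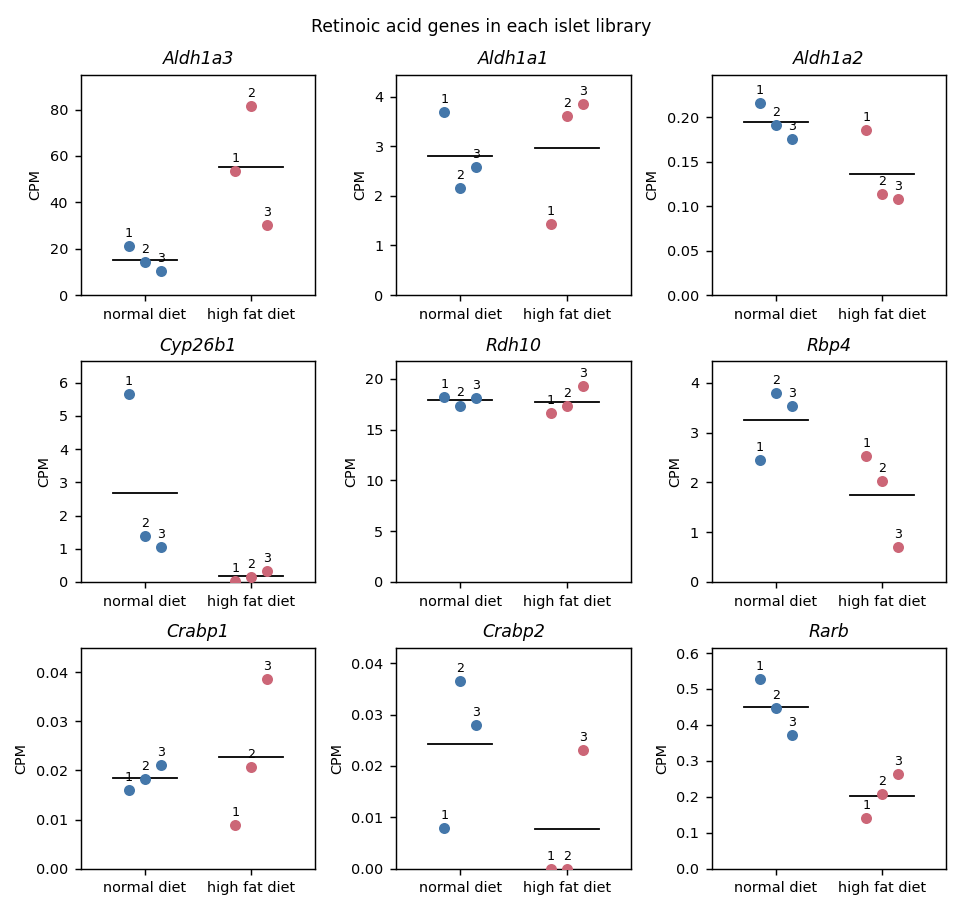
TMM-normalised CPM of the 9 retinoic acid genes in each library (points, numbered by replicate) for the normal diet (blue) and the high fat diet (red), with a line at each mean and an axis from 0 for each gene. Aldh1a3 lies above all normal diet libraries in the 3 high fat libraries, Cyp26b1 and Rarb lie below them, and the other genes overlap.

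Rdh10 encodes the retinol dehydrogenase that makes retinal. Its locus (XLOC_000026) spans chr1:16095393-16123818 on the plus strand of mm9. Its level was 18.3, 17.4 and 18.1 CPM on the normal diet and 16.6, 17.3 and 19.3 CPM on the high fat diet. The 6 values overlap and lie close together, and the log2 fold change was -0.015 (SE 0.10, edgeR adjusted p = 0.94). Of the 7 tested genes Rdh10 had the smallest standard error. Its sign turned with the scaling: it was 0.0042 with DESeq2 size factors in place of TMM.

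Among the retinal dehydrogenases, which carry out the last step to retinoic acid, Aldh1a3 (XLOC_032316, chr7:73535779-73572363, minus strand of mm9) was the most abundant on both diets. Normal diet libraries 1, 2 and 3 held 21.3, 14.1 and 10.2 CPM, and high fat libraries 53.6, 81.4 and 30.2 CPM. Every high fat library lay above every normal diet library, and both diets spread widely: the highest high fat library was high fat 2 and the lowest high fat 3. The means were 15.2 ± 5.6 CPM and 55.1 ± 25.6 CPM (SD, n = 3 each), a ratio of 3.62, and the log2 fold change was 1.85 (SE 0.36). Leaving out each library in turn gave log2 fold changes from 1.47 to 2.16.

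Aldh1a1 (XLOC_017478, chr19:20567171-20717979, plus strand) encodes a second retinal dehydrogenase. It stood at 3.70, 2.15 and 2.58 CPM on the normal diet and 1.43, 3.60 and 3.85 CPM on the high fat diet. High fat library 1 was the lowest of all 6 and high fat library 3 the highest, so the diets overlap fully. The log2 fold change was 0.07 (SE 0.35, edgeR adjusted p = 0.91), and it was -0.13 with library totals alone. The SE leaves room for a difference of either sign. Aldh1a7, a close relative of Aldh1a1 in a separate locus 49462 bases downstream, gave 0.19 (SE 0.39, edgeR adjusted p = 0.77) at a mean of 0.258 CPM on the normal diet, and how reads that fit both copies were counted is not given in the sources used here.

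Aldh1a2 (XLOC_036063, chr9:71063596-71144050, plus strand), the retinal dehydrogenase best known from the embryo, was scarce, with between 11 and 27 reads in any library. Its level was 0.216, 0.191 and 0.175 CPM on the normal diet and 0.185, 0.114 and 0.108 CPM on the high fat diet. Only high fat library 1 reached the range of the normal diet. Its difference on the log2 scale, -0.51 with an SE of 0.32, did not pass the threshold (edgeR adjusted p = 0.30).

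On the degrading side, Cyp26b1 (XLOC_029502, chr6:84521408-84543902, minus strand), whose product oxidises retinoic acid, was counted 706, 152 and 148 times on the normal diet and 4, 15 and 42 times on the high fat diet. These counts are 5.65, 1.39 and 1.04 CPM against 0.0353, 0.155 and 0.324 CPM. All high fat libraries lay below all normal diet libraries, and normal diet library 1 held several times the reads of the other normal diet libraries. The means were 2.69 ± 2.57 and 0.172 ± 0.145 CPM (SD, n = 3 each), and the log2 fold change was -3.93 (SE 0.81). Without normal diet library 1 it was -2.81, and over the 6 leave-outs it ran from -4.85 to -2.81. The other enzymes of the family, Cyp26a1 and Cyp26c1, had 30 and 24 reads in all 6 libraries and were too low to test.

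Rarb (XLOC_010546, chr14:17263354-17651648, minus strand), a retinoic acid receptor gene whose window holds the DR5 shown above, fell in high fat islets. It was counted 66, 49 and 53 times on the normal diet and 16, 20 and 34 times on the high fat diet, or 0.528, 0.447 and 0.372 CPM against 0.141, 0.207 and 0.262 CPM. The diets did not overlap. The means were 0.449 ± 0.078 and 0.204 ± 0.061 CPM (SD, n = 3 each), and the log2 fold change of -1.13 had an SE of 0.29 and an edgeR adjusted p = 0.044. The call is narrow. With any 1 library other than high fat library 3 left out, the edgeR adjusted p was between 0.089 and 0.14, and without high fat library 3 it was 0.020. The log2 fold change stayed between -1.36 and -0.91 in these fits. The gene overlaps Top2b, a DNA topoisomerase gene on the opposite strand, which stood at 0.085 (SE 0.098, edgeR adjusted p = 0.58). An unnamed minus-strand locus 58449 bases downstream of Rarb (XLOC_010545, singled out after its values were seen) lies within the span of Top2b, on the strand opposite to it. This locus was lower in high fat islets, at 2.57, 2.15 and 1.72 CPM against 1.40, 1.11 and 1.27 CPM, a log2 difference of -0.77 with an SE of 0.20 (edgeR adjusted p = 0.043).

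Rbp4 (XLOC_018001, chr19:38191110-38199811, minus strand), the serum carrier of retinol, stood at 2.44, 3.80 and 3.53 CPM on the normal diet and 2.53, 2.03 and 0.709 CPM on the high fat diet. High fat library 3 was the lowest, and high fat library 1 lay within the normal diet range. Its difference on the log2 scale, -0.90 with an SE of 0.40, did not pass the threshold (edgeR adjusted p = 0.16), and without high fat library 3 it was -0.51. Its overlapping neighbour on the plus strand, the fatty acid receptor gene Ffar4, had 15.6, 14.5 and 16.3 CPM against 11.7, 9.15 and 12.3 CPM (-0.48, SE 0.14, edgeR adjusted p = 0.054).

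The cellular retinoic acid binding proteins were barely detected. Crabp1 (XLOC_035899, chr9:54612615-54620916, plus strand) had 2, 2 and 3 reads on the normal diet and 1, 2 and 5 on the high fat diet. Crabp2 (XLOC_021997, chr3:87752615-87757294, plus strand) had 1, 4 and 4 reads against 0, 0 and 3. In high fat libraries 1 and 2 the 0 counts of Crabp2 allow levels of up to 0.0265 and 0.0311 CPM, by a limit of 3 counts that covers counting error only. A difference between the diets was not detectable at this depth for either gene.

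Because longer transcripts give more reads, the genes were ranked by CPM per kilobase of exon. On the normal diet Rdh10 (4.42) and Aldh1a3 (3.83) led, followed by Rbp4 (2.51), Aldh1a1 (0.543), Cyp26b1 (0.504), Rarb (0.100), Aldh1a2 (0.0858), Crabp2 (0.0269) and Crabp1 (0.0249). Neighbours in this order overlapped over the 3 libraries except Rbp4 and Aldh1a1, Cyp26b1 and Rarb, and Aldh1a2 and Crabp2. On the high fat diet Aldh1a3 stood first at 13.9 ± 6.5 CPM per kilobase (SD, n = 3), above Rdh10 at 4.38 ± 0.34 in every library. Rbp4 (1.35) and Aldh1a1 (0.572) came next, and their libraries overlapped. Aldh1a2 (0.0600), Rarb (0.0455), Cyp26b1 (0.0321) and Crabp1 (0.0306) followed, each overlapping the next over the libraries. Crabp2 was last at 0.00857. Counted only over its unshared exon bases, Rbp4 stood at 7.73 and 4.16 CPM per kilobase on the normal and the high fat diet. By mean, that is above Rdh10 on the normal diet and still below it on the high fat diet. Counted in the same way, Rarb stood at 0.157 and 0.0712, which is above Aldh1a2 on the high fat diet as well. The order therefore depends on how shared exons are treated.

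**Figure D2:**
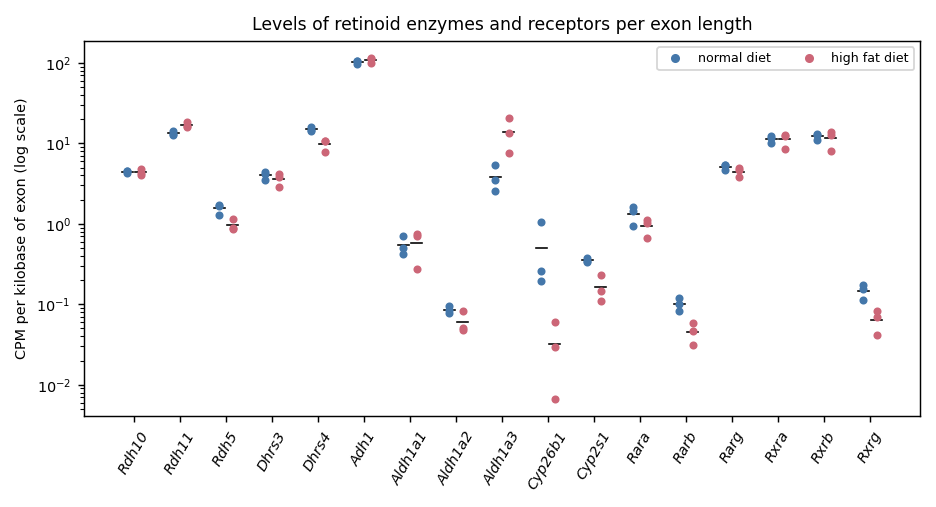
CPM per kilobase of exon (log axis) of retinoid enzymes and receptors in each normal diet (blue) and high fat (red) library, with a line at each mean. Adh1 lies highest at 104 and 109, and Aldh1a3 goes from below Rdh10 on average to above it. By mean, Aldh1a2 and Rarb lie lowest on the normal diet, where Cyp26b1 is at 0.504, above Cyp2s1 and Rxrg. On the high fat diet Cyp26b1, Rarb and Aldh1a2 lie lowest.

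The genes above are part of 82 retinoid genes listed by role, of which 78 were linked to a locus and 59 tested. Beyond the 9 genes, 52 were tested, with 3 higher (Rbp7, Bco1 and Rdh11) and 6 lower (among them Cyp2s1, Dhrs4, Rdh5, Lpl and Ncoa3) in high fat islets. These counts, and those for each role below, stand beside the 5.95% higher and 4.86% lower of all loci. The diets did not overlap at 19 of the 52, beside 39.2% of all loci. Their median log2 fold change was -0.08, beside -0.05 for all loci. With library totals alone, 3 of the 59 retinoid genes were higher and 13 lower, in place of 4 and 8, counts that include Aldh1a3 and Cyp26b1 by their choice.

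Of the tested genes for retinol carriage and uptake, 1 of 5 rose and none fell. Rbp7, a cellular retinol binding protein known from fat tissue endothelium, rose from 6.39, 5.97 and 5.05 CPM to 9.56, 12.8 and 11.6 CPM (0.96 on the log2 scale, SE 0.15, edgeR adjusted p = 0.019). Of the 7 tested genes for retinyl ester handling and carotenoid cleavage, 1 rose and 1 fell. Bco1, which cleaves beta-carotene into retinal and whose promoter holds the DR1 named above, rose from 8.84, 9.86 and 9.54 CPM to 14.2, 14.4 and 16.5 CPM (0.67, SE 0.12, edgeR adjusted p = 0.022). Lpl, a lipase that also frees retinol from the esters of lipoproteins, fell from 171, 179 and 234 CPM to 123, 102 and 139 CPM (-0.68, SE 0.15, edgeR adjusted p = 0.031).

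Of the enzymes between retinol and retinal, 1 of 11 tested was higher and 2 were lower, beside 5.95% and 4.86% of all tested loci. Rdh11, mainly a retinal reductase, rose from 41.9, 42.7 and 46.9 CPM to 52.5, 54.0 and 60.6 CPM (0.35 on the log2 scale, edgeR adjusted p = 0.048). Dhrs4, another retinal reductase, fell from 104, 109 and 117 CPM to 79.3, 78.7 and 57.9 CPM (-0.61, edgeR adjusted p = 0.029). Rdh5, known as a retinol dehydrogenase of the eye, fell from 3.20, 3.06 and 2.37 CPM to 2.10, 1.57 and 1.63 CPM (-0.70, edgeR adjusted p = 0.047). The libraries of the diets did not overlap at 6 of the 11 tested genes, these 3 among them, beside 39.2% of all tested loci. The alcohol dehydrogenases Adh1 and Adh5, the most abundant of the list, stood at 104 and 43.7 CPM per kilobase on the normal diet and 109 and 50.8 on the high fat diet, with log2 fold changes of 0.08 and 0.22 that did not pass the threshold.

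In the step from retinal to retinoic acid, the 4 tested genes besides Aldh1a3, which was chosen on this contrast, did not pass the threshold in either direction. Aox1, an aldehyde oxidase that can also oxidise retinal, was above Aldh1a3 on the normal diet (6.16 against 3.83 CPM per kilobase) and below it on the high fat diet (4.96 against 13.9). Its own log2 fold change was -0.31 (SE 0.17, edgeR adjusted p = 0.25). Of the genes for binding retinoic acid in the cell, Fabp5 was the only one tested. It encodes a fatty acid binding protein that can also carry retinoic acid, and its libraries did not overlap, at 2.15, 1.77 and 1.88 CPM against 2.31, 2.79 and 2.47 CPM, but it did not pass the threshold (0.38, SE 0.16, edgeR adjusted p = 0.13).

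On the degradation side, 1 of the 2 tested genes besides Cyp26b1, which was chosen on this contrast, was lower. Cyp2s1, a cytochrome P450 that has been described to metabolise retinoic acid, fell from 1.98, 2.01 and 2.19 CPM to 0.636, 1.37 and 0.856 CPM (-1.12 on the log2 scale, SE 0.26, edgeR adjusted p = 0.035). Ugt1a6a, of a cluster whose members share exons, was at 2.45 and 2.25 CPM per kilobase and did not pass the threshold.

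Of the 10 tested retinoid receptor genes, Rarb was the only one past the threshold. Rxrg, a retinoid X receptor, had libraries below the normal diet range as well, at 0.264, 0.365 and 0.407 CPM against 0.0971, 0.166 and 0.193 CPM, and missed the threshold (log2 fold change -1.18, SE 0.33, edgeR adjusted p = 0.052). DESeq2 and the scaling by library totals put it past the threshold. The other retinoic acid receptors Rara and Rarg stood at -0.51 and -0.20 (edgeR adjusted p = 0.19 and 0.32), and the abundant retinoid X receptors Rxra and Rxrb at -0.0064 and -0.089. Of the 10 tested co-regulators of these receptors 2 were lower. Among them Ncoa3, a co-activator, fell by 0.32 on the log2 scale (edgeR adjusted p = 0.047). Hdac3 and Ncor1, the most abundant, did not pass the threshold.

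Of 14 tested genes known to respond to retinoic acid, 2 were lower by edgeR (Rarb and Cyp26b1), beside 4.86% of all tested loci. These 2 had no overlap between the diets, and Cyp26b1 was chosen on this contrast. Without the 9 genes, 12 genes of the list were tested, and 0 were higher or lower by edgeR. Of these 12, 0 were at an unadjusted p under 0.05 and 0 were without overlap between the diets. DESeq2 called none of them, and scaling by library totals alone called Ret lower, at -0.29 on the log2 scale. Their median log2 fold change was -0.13, beside -0.05 for all loci. Of all 23983 tested loci, 10.8% passed the threshold, 7623 were at an unadjusted p under 0.05 by edgeR, and the diets did not overlap at 39.2%. Ret, a receptor tyrosine kinase, stood at 18.4 and 17.3 CPM per kilobase, Meis2, a homeobox gene, at 11.5 and 11.4, and Tgm2, a transglutaminase, at -0.35 on the log2 scale (SE 0.19, edgeR adjusted p = 0.23). Dhrs3, a retinal reductase gene and a response gene within the pathway itself, stood at -0.15. Cdx1 was not detected in any library.

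**Figure D3:**
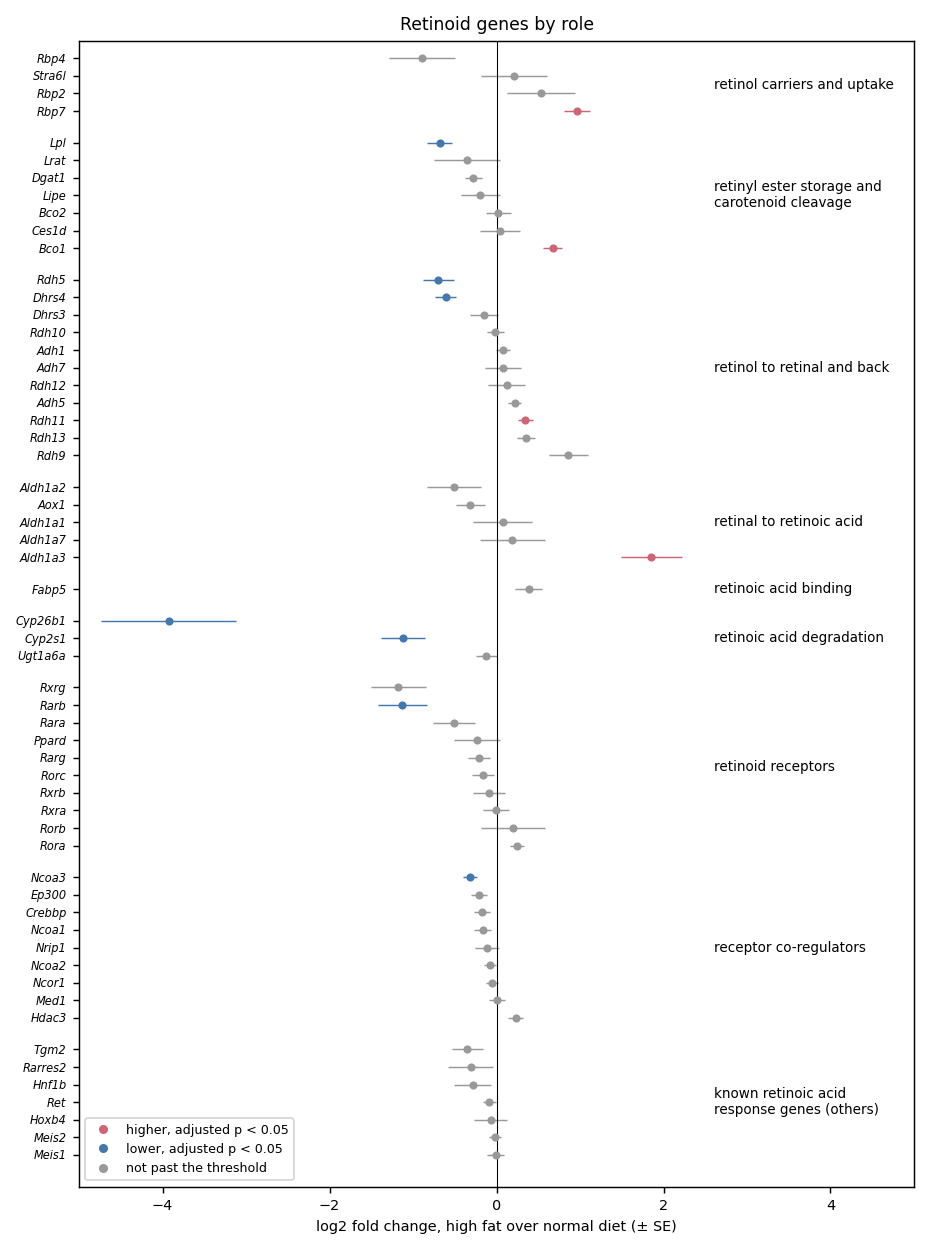
Log2 fold change of the tested retinoid genes reported here (high fat over normal diet, points with bars of 1 SE), ordered by role and coloured by call (edgeR adjusted p under 0.05: red higher, blue lower, grey not past the threshold). Aldh1a3 at 1.85 and Cyp26b1 at -3.93, whose colours follow from their choice on this contrast, lie farthest from 0. Response genes that also have another role, such as Rarb and Cyp26b1, are drawn under that role only. The remaining response genes at the bottom lie between -0.35 and -0.01.

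The calls among the other retinoid genes shared the dependence on single libraries seen for Rarb. With all 59 tested genes counted, Aldh1a3 and Cyp26b1 included, none passed without normal diet library 1, 2 or 3. Rbp7 was the only one without high fat library 1, and Cyp2s1 the only one without high fat library 2. Without high fat library 3, 5 were higher and 10 lower. Across other scalings, the filter and DESeq2, Rbp7, Bco1, Rarb, Cyp2s1, Dhrs4, Rdh5 and Lpl passed each time. Rdh11 passed in 3 and Ncoa3 in 2 of these 5 fits, the fit reported here included.

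**Figure D4:**
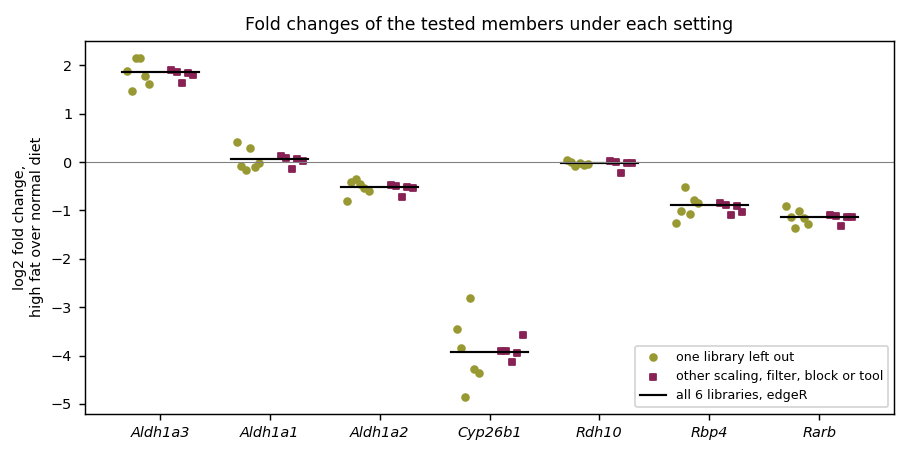
Log2 fold changes of the 7 tested genes (high fat over normal diet) with 1 library left out (circles) and with another scaling, filter, replicate block or tool (squares), beside the value from all 6 libraries (line). Aldh1a3 stays between 1.47 and 2.16 with a library left out, Cyp26b1 spans -4.85 to -2.81, and Aldh1a1 and Rdh10 lie on both sides of 0.

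The genes whose levels ran most like Aldh1a3 over the 6 libraries, among 11488 coding genes with a mean of at least 1 CPM, were Thbs1 and Cthrc1 (Pearson r = 0.999 each), Grpel1 and Mrps5 (0.994 each) and Slc35e1 (0.993). These are correlations of log2 CPM over 6 points that share the diet contrast, and they are given as a description. Thbs1, which encodes the matrix protein thrombospondin 1, stood at 48.1, 43.0 and 39.8 CPM on the normal diet and 59.2, 66.7 and 51.3 CPM on the high fat diet. It follows the order of Aldh1a3 in all 6 libraries over a smaller range. Cthrc1, a secreted collagen triple helix protein gene, went from 5.19, 4.34 and 3.66 CPM to 8.33, 9.85 and 6.45 CPM in the same order. For Cyp26b1 the 5 were Gm4969 (0.994), Igsf10 (0.992), Tmc3 (0.981), Wdr38 (0.980) and Has3 (0.979). Has3, a hyaluronan synthase gene, stood at 3.03, 2.34 and 2.34 CPM against 1.32, 1.57 and 1.58 CPM.

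Near Aldh1a3, a locus without strand starts 184 bases upstream (XLOC_033257, 694 exon bases) and was counted 4, 1 and 3 times on the normal diet and 19, 12 and 2 times on the high fat diet. It was too low to test, and its diets overlap. Lrrk1, a kinase gene 1553 bases downstream, stood at -0.05 (SE 0.17, edgeR adjusted p = 0.87). The nearest named neighbour of Cyp26b1, the exocyst gene Exoc6b 24577 bases upstream, stood at 0.12 (SE 0.094, edgeR adjusted p = 0.41).

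In RNA of whole islets, fewer cells of a type and less RNA per cell cannot be told apart, so marker genes of islet and neighbouring cell types were summed per library beside the retinoic acid genes. Counts of markers past the threshold, in this and the following lists, stand beside 5.95% higher and 4.86% lower of all tested loci. The beta cell list was led by Iapp and Ins2. Its sum ran from 59977 to 70289 CPM in normal diet libraries and from 86162 to 105325 CPM in high fat libraries. Of 7 tested markers 2 were higher (Iapp and G6pc2) and none lower. Most of the rise in the sum was Iapp, with means of 35728.5 CPM (normal diet) and 58831.3 CPM (high fat diet). Ins1, Ins2, Ucn3, Slc30a8 and Glp1r overlapped between the diets and did not pass the threshold. High fat library 2, the highest in Aldh1a3, was also the highest in the beta cell sum. High fat library 3 was the lowest of the high fat libraries in both. Within the normal diet the order differed: library 1 was the highest in Aldh1a3 and the lowest in this sum. The acinar list, led by Cela2a and Pnlip, ran from 2407 to 4730 CPM and from 3531 to 7597 CPM, with 0 of 8 markers past the threshold. High fat library 2 was the highest in this sum too, but the lowest high fat library was library 1 and not library 3. Normal diet library 1 was the lowest of all libraries in the acinar sum. Markers of beta-cell progenitors and dedifferentiation, led by Neurog3 and Gast, summed to 4.77 to 5.55 CPM on the normal diet and 4.17 to 4.68 CPM on the high fat diet, with 0 of 4 tested past the threshold. The part of these cell types in the Aldh1a3 values was not tested.

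The fibroblast and stellate cell list, led by Dcn and Col3a1, summed to 205, 98.1 and 153 CPM in the normal diet libraries and 75.7, 145 and 90.1 CPM in the high fat libraries, with 0 of 7 markers past the threshold and a median log2 fold change of -0.65. Normal diet library 1 was the highest in this sum and in Cyp26b1, and high fat library 1 the lowest in both. High fat library 2, at 145 CPM, lay above normal diet library 2 in the fibroblast sum, while its Cyp26b1 level of 0.155 CPM was below the 1.39 CPM of that library. The Schwann cell list ran from 22.6 to 24.1 CPM and from 15.1 to 20.6 CPM, with 3 of 6 markers lower (Sox10, Ngfr and Gfap). Their part in the Cyp26b1 and Rarb values was not tested.

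Among the remaining lists, 1 of 6 tested alpha cell markers was higher (Gc) and 3 were lower (Irx1, Irx2 and Slc7a2), with sums of 23055 to 25464 CPM and 18499 to 22032 CPM and Gcg and Gc the most abundant. Rgs5 and Acta2, 2 of 6 pericyte markers, were higher, and the other pericyte markers did not pass the threshold. The pericyte sum ran from 274 to 280 CPM in normal diet libraries and from 382 to 458 CPM in high fat libraries. Most of this rise was Rgs5, with means of 234.7 CPM (normal diet) and 379.9 CPM (high fat diet). Pdgfrb, Cspg4, Myh11 and Des overlapped between the diets. Fabp4 of the adipocyte list was higher as well, while the defining adipocyte genes Lep and Plin1 had 0 counts in all libraries. Csf1r, 1 of 3 tested macrophage markers, and Msln, 1 of 2 mesothelial markers, were lower and higher respectively. None of the delta and PP cell (4 tested), duct (5) and endothelial (6) markers passed the threshold. The part of these cells in the levels of Rbp7, Lpl and the other retinoid genes was not tested.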

How the data were processed

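The authors deposited raw counts of reads per locus, a normalised table that was not used here, and their assembled transcripts with coordinates in mm9. The submitters' processing notes name edgeR, HTSeq 0.5.4p3, Cufflinks 2.1.1 and TopHat2 2.0.8, with build mm9. Their settings are not given in the sources used here. Per the labels' protocols the libraries were stranded and made without poly(A) selection. The members and gene lists, and the rule for named genes, were chosen with earlier results of these data known.

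Loci were linked to GENCODE M21 genes on the same chromosome and strand by their ordered exon and intron lengths, so each symbol is an inference from structure; 19727 loci were linked, 1507 of them by a rule for short loci with 40 bases of tolerance at the ends. They held 92.2% of counts. Loci with over 90% of exon bases shared were to be skipped, which touched none of the 9 genes. Tests used edgeR 4.0.16 in R 4.3.3 (filterByExpr, TMM, quasi-likelihood test, two-sided, Benjamini-Hochberg over all tested loci, threshold 0.05) and limma 3.58.1. DESeq2 1.42.0, other scalings, no filter, a replicate block and leaving out each library were alternatives. The script was tested on simulated data. Named are the 9 genes, retinoid genes past the threshold, the 2 most abundant per kilobase in each list of retinoid genes or markers, markers at 0, and the 5 genes most correlated with Aldh1a3 and Cyp26b1 (prior count 2). Other genes were named after their values were seen. Some genes that the rule takes are counted in their lists but not reported here.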

Additional observations from a re-analysis of the deposited data

How the results depend on the processing

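Counts of loci past the threshold depended on the setting. Library totals alone gave 300 higher and 3039 lower loci and 13 lower retinoid genes, and DESeq2 gave 2476 higher loci. A replicate block gave 54 higher and 20 lower loci, with 0 retinoid genes higher and 0 lower. Under that block the log2 fold changes were 1.80 for Aldh1a3, -3.58 for Cyp26b1 and -1.14 for Rarb, and the edgeR adjusted p of Rarb was 0.099. The labels share replicate numbers, but same-numbered libraries did not deviate together (correlations of -0.075, 0.075 and -0.014), so the numbers were not taken as pairs. Leaving out each library gave 0 to 3075 higher and 0 to 1960 lower loci, 0 to 5 higher and 0 to 10 lower retinoid genes, and log2 fold changes of 1.47 to 2.16 for Aldh1a3, -4.85 to -2.81 for Cyp26b1, -1.36 to -0.91 for Rarb, -1.26 to -0.51 for Rbp4, -0.80 to -0.35 for Aldh1a2, -0.16 to 0.41 for Aldh1a1 and -0.073 to 0.037 for Rdh10. Rarb passed the threshold in 1 of these 6 fits, the one without high fat library 3. The sign turned for Rdh10 with DESeq2 size factors (0.0042) and with DESeq2 (0.030), and for Aldh1a1 with library totals (-0.13). The cause was not tested. Summing all loci linked to a gene was not run, since 0 of the listed genes had more than 1. Depth limits Crabp1, Crabp2, Cyp26a1 and Cyp26c1.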
